A study of Sus scrofa with 80 samples.

Results

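Angiotensinogen (AGT) and the angiotensin II receptors AGTR1 and AGTR2 were followed over 80 Affymetrix porcine arrays. The members were the probesets whose single gene symbol in the platform annotation is AGT, AGTR1 or AGTR2. Of these 3 genes, 2 were found, each with 1 probeset, among 6765 gene symbols and 23999 probesets. The annotation gives Entrez Gene 100157073 for AGT and 100519976 for AGTR1. No probeset carries the symbol AGTR2, which was not analysed here. The genes were chosen by their measured tissue levels and testis-ovary difference on these same arrays, so those values are given as a description with no test.

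The arrays came from 16 pigs, each with hypothalamus, adenohypophysis, thyroid gland, backfat and gonad (testis of 9 males, ovary of 7 females). Iberian (IB), Duroc (DU), Large White (LW) and Youli (YL), a maternal line made by crossing, had 4 animals each, of which 2 were females except in Youli, with 1. The pigs were weaned at 1 month of age, shared housing and diets, and were fasted for 24 h before slaughter. Mean age and weight at slaughter were 87 days and 27.2 kg in Large White, 83 days and 23.1 kg in Duroc, 80 days and 18.9 kg in Youli, and 89 days and 17.4 kg in Iberian. No animal was treated. Age and weight therefore vary with breed and cannot be told apart from it, and the 3 supplying companies are not assigned to animals in the sources used here.

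AGT encodes the only known precursor of the angiotensin peptides. In the circulation it comes mainly from liver, it is cut to angiotensin I, and angiotensin-converting enzyme (ACE) makes angiotensin II, which raises blood pressure and aldosterone mostly through the receptor that AGTR1 encodes. Adipocytes and astrocytes also make angiotensinogen, and local angiotensin systems are known in brain, pituitary, fat and gonads.

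The values are GCRMA log2 intensities, so a difference of 1 is a doubling of signal. Array medians ran from 4.67 to 5.04 and the 5th percentiles from 1.91 to 2.03, so values near 2 lie at the bottom of the scale. Levels are compared between arrays for one probeset, not between probesets. Marker genes fixed for each tissue were highest in that tissue for 7 of 8 hypothalamic, 8 of 8 adenohypophyseal, 4 of 4 thyroid follicle, 4 of 4 adipocyte, 5 of 6 Leydig and theca cell (against testis) and 5 of 5 oocyte genes, although the granulosa cell markers FOXL2 and CYP19A1 were at 1.84 and 2.72 on average in ovary. The labels of 11 thyroid arrays of 16 name another breed or sex in the title than in the other fields. The title was used, and the Y-linked EIF1AY lay on the side of the title's sex on 16 thyroid arrays and of the field's sex on 8.

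On some arrays markers of the labelled tissue were low, or markers of another tissue were high. The ovary of the Iberian female IBF25 had a mean of 2.83 over the 5 oocyte markers and of 2.98 over the 7 granulosa cell markers, where the other 6 ovaries were at 8.01 to 10.43 and at 5.90 to 6.35. The hypothalamus of the Large White female LWF06 had a mean of 2.46 over the 8 hypothalamic markers, against 5.25 to 10.10 in the other 15. The backfat of the Youli male YLM19 had a mean of 14.49 over 3 skeletal muscle markers, against 2.13 to 10.43 in the other 15, and the lowest adipocyte marker mean (9.66). The thyroid gland of the Youli male YLM20 had a mean of 8.78 over the 8 adenohypophyseal markers, against 2.13 to 5.996 in the others. Its mean over the thyroid follicle markers was 10.65, within the range of the tissue (10.21 to 11.82). Without LWF06 the hypothalamic means given below became 11.58 for AGT and 4.94 for AGTR1, without YLM20 the thyroid means 5.21 (SD 1.96) and 7.69, and without YLM19 the backfat means 12.25 (SD 0.75) and 11.02. Breed results within a tissue and marker relations that rest on these arrays are given with and without them, and the most similar genes only with them. For breed in the ovaries without IBF25, differences are given but no p.

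AGT, the ligand precursor, was high in backfat, testis and hypothalamus and low in thyroid gland, ovary and adenohypophysis. In backfat its 16 values ran from 10.42 to 13.25 (mean 12.14 ± 0.86, SD). In the 9 testes they ran from 10.81 to 12.90 (11.98 ± 0.65). In the hypothalamus they ran from 10.78 to 12.27 (11.58 ± 0.36, n = 16). These 3 groups overlapped, and the steps between their means, 0.16 from backfat to testis and 0.40 from testis to hypothalamus, were smaller than the larger SD of each pair. AGT then dropped by 6.26 between hypothalamus and thyroid gland, with no overlap. In the thyroid gland AGT was spread from 2.27 to 8.13 (5.32 ± 1.94, n = 16). The 7 ovaries ran from 1.88 to 5.81 (4.06 ± 1.54), and the adenohypophysis from 2.49 to 5.29 (3.83 ± 0.81, n = 16). The order of these last 3 groups is not separated from their spread, since their ranges overlapped and their means differed by less than 1 SD. In whole tissue, fewer cells of a type and less RNA per cell cannot be told apart.

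**Figure D1:**
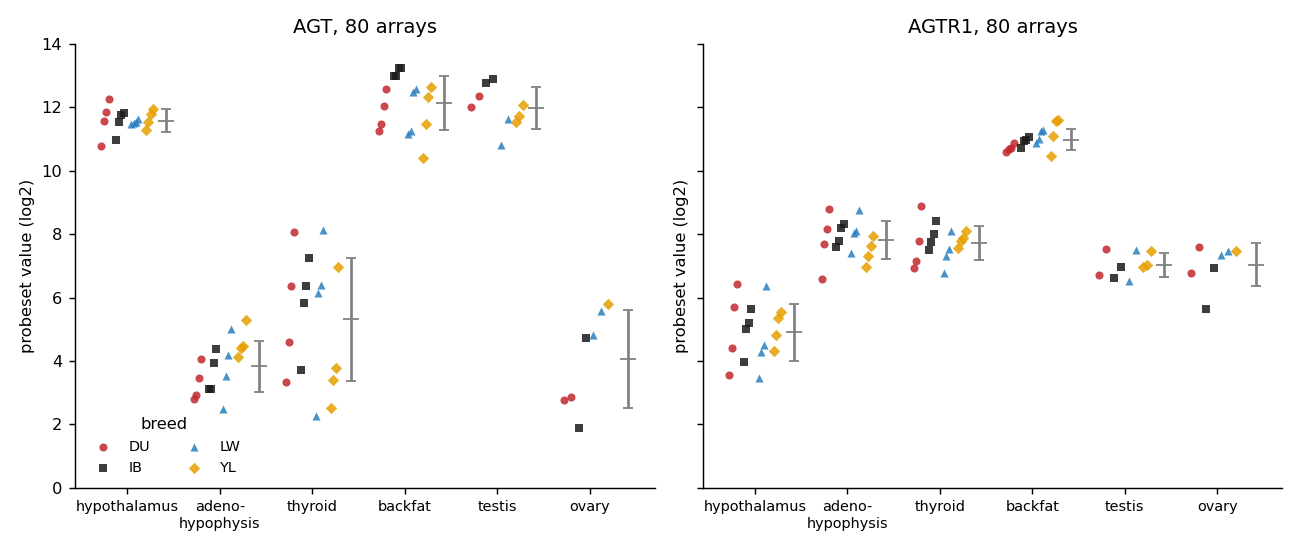
Log2 values of the AGT probeset (left) and the AGTR1 probeset (right) in each of 80 arrays, by tissue (x axis), with 1 point an array, colour and shape for breed, and a grey mark and bar for the mean and SD of the tissue group. AGT splits into 3 high groups, at 10.42 or more on every array, and 3 low groups, at 8.13 or less, while AGTR1 is highest in backfat.

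The gonads differed most plainly for AGT. The ovaries were at 2.87 and 2.78 (Duroc DUF13 and DUF14), 4.71 and 1.88 (Iberian IBF22 and IBF25), 4.83 and 5.57 (Large White LWF05 and LWF06) and 5.81 (Youli YLF21). The testes were at 10.81 and 11.62 in Large White (LWM02 and LWM04), 11.53, 11.72 and 12.07 in Youli (YLM20, YLM19 and YLM18), 12.37 and 12.02 in Duroc (DUM12 and DUM15) and 12.77 and 12.90 in Iberian (IBM24 and IBM23). The lowest testis was 4.99 above the highest ovary. The means differed by 7.91, and by 7.55 without the ovary IBF25. Several ovary values lie near the bottom of the scale, so the size of the difference is not exact. With breed in the model the difference was 7.84 (SE 0.60), and after subtracting the mean of the other 4 tissues of each animal it was 7.92 (SE 0.57).

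AGTR1, the receptor that mediates most actions of angiotensin II, had a different order of tissues. It was highest in backfat, at 10.48 to 11.61 (mean 10.99 ± 0.33, SD, n = 16), 3.16 above the next group and with no overlap. The adenohypophysis ran from 6.59 to 8.80 (7.83 ± 0.60, n = 16) and the thyroid gland from 6.77 to 8.88 (7.72 ± 0.54, n = 16), which differed by 0.11 in mean and overlapped. The testes (6.52 to 7.52, 7.04 ± 0.38, n = 9) lay 0.68 below the thyroid gland, more than the larger SD, with overlapping ranges. The ovaries (5.65 to 7.60, 7.03 ± 0.68, n = 7) did not differ from the testes beyond their spread. The hypothalamus was lowest, at 3.48 to 6.41 (4.91 ± 0.90, n = 16), 2.12 below the ovaries.

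Where AGT differed by 7.91 between testis and ovary, AGTR1 differed by 0.0045. The ovaries were at 7.60, 6.79, 6.94, 5.65, 7.45, 7.33 and 7.47, in the order given for AGT, and the IBF25 array was again the lowest. Without it the 6 other ovaries lay between 6.79 and 7.60 (7.26 ± 0.33), and the difference became -0.23. The model with breed gave -0.05 (SE 0.24) and, with the other tissues subtracted, -0.17 (SE 0.26). The gonads were thus apart for the ligand precursor, while their ranges overlapped for the receptor.

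The spread among animals within a tissue was uneven. The SD of AGT in the thyroid gland (1.94) was reached or exceeded by 0.183% of all probesets there, whose median SD was 0.25. Where AGT was high, its SD was 0.36 in the hypothalamus, reached by 30.4% of probesets, 0.65 in testis, reached by 12.7%, and 0.86 in backfat, reached by 5.69%. The SD of AGTR1 was smallest in backfat (0.33, reached by 42.8% of probesets) and testis (0.38, 34.4%), between 0.54 and 0.68 in thyroid gland, adenohypophysis and ovary, and largest in the hypothalamus (0.90, 3.09%).

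The thyroid spread of AGT was followed through the markers of the other cell types a sample can hold. From low to high, AGT was at 2.27 in LWM04, 2.51 in YLM18, 3.35 in DUM15, 3.39 in YLM19, 3.72 in IBF25 and 3.77 in YLF21. The highest 4 were YLM20 at 6.97, IBF22 at 7.26, DUM12 at 8.06 and LWM02 at 8.13. Each breed was found at both ends, and Youli had 3 of its 4 thyroid glands at 3.77 or less. The mean of the 4 measured adipocyte markers ranged from 4.32 in LWM04, the array with the lowest AGT, to 9.32 in DUM12 and 8.63 in LWM02, those with the highest. Over the 16 thyroid arrays AGT rose with this mean, with Pearson's r = 0.76 and Spearman's rho = 0.76 (permutation p = 0.00055 and 0.00109). Of the markers, LPL (lipoprotein lipase) ranged from 3.03 to 10.89 and had r = 0.81 with AGT, ADIPOQ (adiponectin) ranged from 1.93 to 10.89 with r = 0.72, FABP4 (a fatty acid-binding protein) ranged from 9.75 to 13.08 with r = 0.63, and LEP (leptin) stayed at 2.37 to 2.48. Without the 2 arrays farthest from the median of the marker mean r was 0.64, with breed means subtracted it was 0.88, and without YLM20 it was 0.75.

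In the testes AGT moved with the markers of Leydig cells, the androgen-producing cells between the tubules. The mean of 6 Leydig and theca cell markers ran from 10.17 in LWM02, which had the lowest AGT, to 11.999 and 12.10 in the 2 Iberian boars IBM24 and IBM23, which had the highest. Over 9 testes r was 0.92 and rho 0.83 (exact permutation p = 0.000703 and 0.00827), r was 0.77 without the 2 testes farthest from the median, and 0.77 with breed means subtracted. The single markers with the closest relation were CYP11A1 (side-chain cleavage of cholesterol), with r = 0.91, and CYP17A1 and STAR, both with r = 0.83, while HSD3B1 had r = 0.26. AGT was also lower in testes with more signal of smooth muscle and pericyte markers (r = -0.75, rho = -0.88, exact permutation p = 0.0198 and 0.00308) and of the astrocyte list (r = -0.74, rho = -0.83, exact permutation p = 0.0233 and 0.00827), and higher with skeletal muscle markers (r = 0.73, rho = 0.68, exact permutation p = 0.0269 and 0.0503). With breed means subtracted these r became 0.10, -0.35 and 0.81, and their adjusted p (exact permutation) was 0.302, 0.323 and 0.323. The relation of AGT with Leydig cell markers was not shown to be particular to them.

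These relations belong to a family of 168, over 2 members, 6 tissue groups and 14 marker lists, of which none passed 0.05 after Benjamini-Hochberg adjustment. AGT with adipocyte markers in the thyroid gland and with Leydig cell markers in the testis had an adjusted p of 0.0583 (permutation test), the lowest of the family, as did AGTR1 with Sertoli cell markers in the hypothalamus (r = 0.74, and 0.73 without LWF06) and with astrocyte markers in the ovary (r = 0.97, n = 7, and 0.94 without IBF25). The Sertoli cell list had a mean of 5.34 in hypothalamus against 8.28 in testis. The astrocyte list had 6.43 in ovary against 12.41 in hypothalamus. Which cells carry these lists outside their own tissue was not tested. The rank correlations of these AGT relations had adjusted p = 0.129 in the thyroid gland and 0.198 in the testis. In the thyroid gland AGTR1 was lower where thyroid follicle markers were higher (r = -0.69, adjusted p = 0.0889 by permutation, and r = -0.68 without YLM20). The relation of AGTR1 with the endothelial markers in the ovary (r = 0.93, n = 7, exact permutation adjusted p = 0.0889) was 0.55 without the 2 ovaries farthest from the median and 0.81 without IBF25. AGT in the ovary had r = 0.93 with the adipocyte list (n = 7, exact permutation adjusted p = 0.218), although that list was at 3.32 to 3.55 there, and r = 0.93 without IBF25. The part of cell makeup in any of these values was not tested further.

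**Figure D2:**
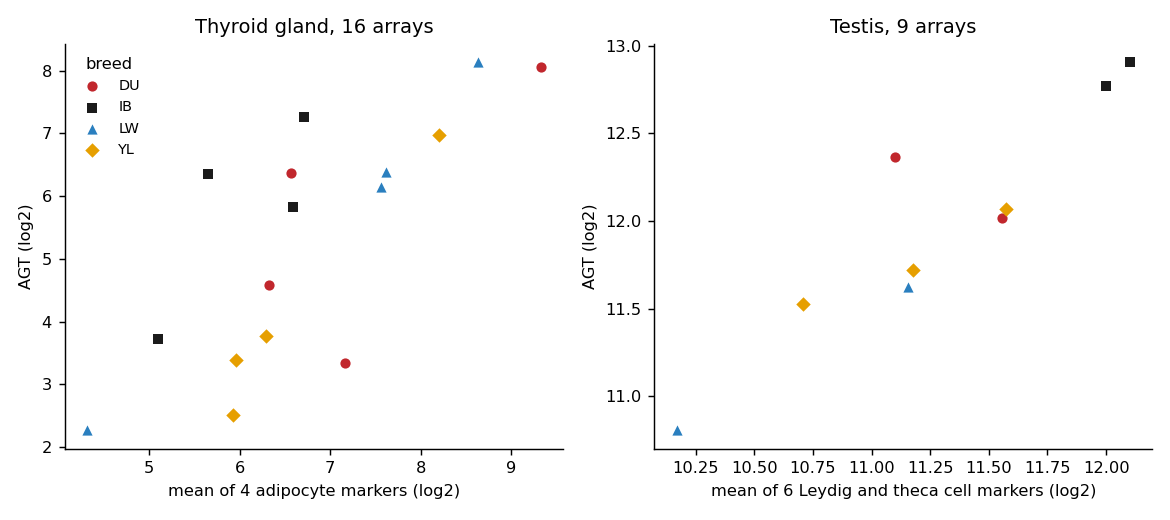
AGT (log2, y axis) against the mean of 4 adipocyte markers in 16 thyroid arrays (left) and against the mean of 6 Leydig and theca cell markers in 9 testes (right, log2, x axis), with colour and shape for breed. AGT is higher where the marker mean is higher, with r = 0.76 in the thyroid gland and 0.92 in the testis.

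No relation between the ligand precursor and the receptor within a tissue passed the test. Over the 6 tissue groups, r between AGT and AGTR1 was 0.57 in hypothalamus, 0.14 in adenohypophysis, 0.28 in thyroid gland, 0.26 in backfat, 0.13 in testis and 0.66 in ovary. The lowest adjusted p of these 6 relations was 0.131 (hypothalamus, permutation test, n = 16), and there r was 0.24 without the 2 farthest arrays. In the ovary r became -0.28 without the 2 farthest arrays and 0.29 without IBF25, in backfat it became 0.06 without YLM19, in thyroid gland 0.24 without YLM20 and in hypothalamus 0.56 without LWF06. With breed means subtracted, r was 0.56 in hypothalamus, 0.42 in adenohypophysis, 0.37 in thyroid gland, 0.60 in backfat, 0.87 in testis and 0.81 in ovary, all positive and given as a description, since testis and ovary have 1 to 3 animals per breed. Spearman's rho ran from 0.03 in testis to 0.61 in ovary, with adjusted p of 0.446 or more (permutation tests, exact in testis and ovary).

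Breeds were compared next. In backfat the 4 Iberian pigs had the highest AGT values of all, at 12.99, 13.25, 12.98 and 13.24 (IBF22, IBF25, IBM23 and IBM24; mean 13.11 ± 0.15, SD). Duroc ran from 11.26 to 12.57 (11.84 ± 0.59), Large White from 11.15 to 12.59 (11.87 ± 0.78) and Youli from 10.42 to 12.66 (11.72 ± 1.00), with 4 animals each. The Iberian values did not overlap any other breed, while the other 3 breeds overlapped each other. The adjusted p of the moderated F test over the 4 breeds (limma) was 0.218, where 0.817% of the 23999 probesets were called. Without YLM19, the array with muscle markers and the lowest AGT (10.42), the adjusted p was 0.139. AGT in backfat therefore did not pass the test in either case.

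The Iberian testes were also the highest in AGT, at 12.77 and 12.90 (mean 12.84), against 12.19 in Duroc (n = 2), 11.77 ± 0.27 in Youli (n = 3) and 11.21 in Large White (n = 2). The adjusted p of the moderated F test was 0.201 (limma). In the testes 0.0% of probesets passed 0.05 after adjustment, with 3352 at an unadjusted p under 0.05 and 1 to 9 called under other settings. In the ovaries the largest difference was 2.99, between Youli (5.81, n = 1) and Duroc (2.82, n = 2), with an adjusted p of 0.890 (limma) against 0.00417% of probesets called. The Youli minus Duroc difference rests only on YLF21, DUF13 and DUF14. It was 2.94 without DUF14 and 3.03 without DUF13, and Iberian or Large White ovaries cannot move it. YLF21 was not left out, so this narrow range says nothing about the Youli value. Without IBF22 or IBF25 only 1 Iberian ovary is left, so no p is given for those fits. Without IBF22 that ovary is IBF25, which had low oocyte and granulosa cell markers.

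**Figure D3:**
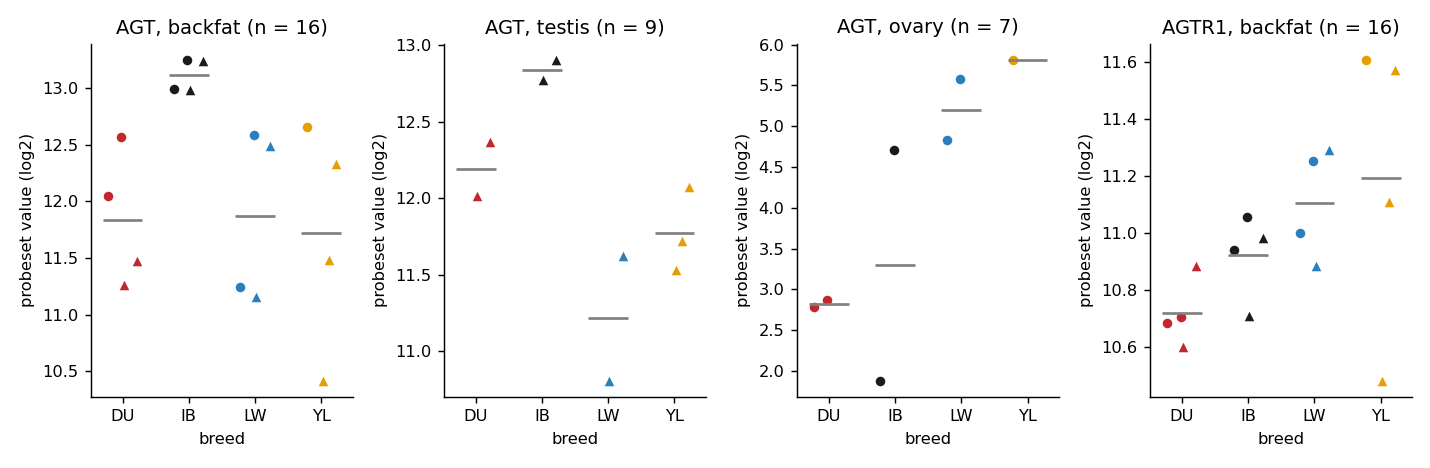
Log2 values by breed for AGT in backfat, testis and ovary and for AGTR1 in backfat, each panel on its own axis, with circles for females, triangles for males, 1 point an animal and a grey line at the breed mean. The 4 Iberian backfat values and the 2 Iberian testes lie above all others for AGT, and the lowest Youli point in both backfat panels is YLM19.

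In the other tissues AGT did not pass the breed test either. The range of the 4 fitted breed effects was 0.09 in hypothalamus, 1.24 in adenohypophysis (Youli 4.57 ± 0.51 against Duroc 3.31 ± 0.57, n = 4 each), 1.64 in thyroid gland and 0.82 in the gonads together. The adjusted p was 0.984, 0.432, 0.929 and 0.920 (limma), with 0.171%, 0.3%, 0.575% and 0.05% of probesets called. Without LWF06 that of the hypothalamus was 0.986, without YLM20 that of the thyroid gland 0.729, and without IBF25 that of the gonads 0.707 (limma). For AGTR1 the ranges were 0.37 in hypothalamus, 0.68 in adenohypophysis, 0.50 in thyroid gland, 0.51 in backfat, 0.70 in the gonads, 0.36 in the testes and 1.18 in the ovaries, and the lowest adjusted p was 0.334, in backfat. The ovary and gonad ranges were Youli minus Iberian, and without IBF25 that difference fell to 0.54 in the ovaries and 0.41 in the gonads. The adjusted p of AGTR1 was 0.980 in hypothalamus without LWF06 and 0.970 in thyroid gland without YLM20 (limma).

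AGTR1 in backfat had its lowest mean in Duroc and its highest in Youli, with overlapping breeds. Duroc had 10.70, 10.68, 10.60 and 10.89 (mean 10.72 ± 0.12), Iberian 10.94, 11.06, 10.71 and 10.98 (10.92 ± 0.15) and Large White 10.999, 11.25, 10.89 and 11.29 (11.11 ± 0.20). In Youli, 3 values were at 11.11 to 11.61 and the fourth, YLM19, at 10.48. Iberian values overlapped both Duroc and Large White, the highest Duroc and the lowest Large White value were both at 10.89, and Youli spanned all 3. The adjusted p of the breed test was 0.334 and, without YLM19, 0.0700 (limma).

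Taking the mean of hypothalamus, adenohypophysis, thyroid gland and backfat of each animal, the breed effects spanned 0.48 for AGT and 0.13 for AGTR1. Their adjusted p was 0.738 and 0.975 (limma), where 1.18% of probesets were called. The test of whether breed differences vary with tissue gave 0.802 and 0.973, where 2.65% were called. So the higher AGT of Iberian backfat was not shown to differ from the breed pattern of hypothalamus, adenohypophysis and thyroid gland. The breed by tissue test uses a common residual variance, while the SD of AGT was 1.94 in thyroid gland and 0.36 in hypothalamus. It was 0.86 in backfat and 0.81 in adenohypophysis. With such uneven spread the test cannot decide whether the backfat difference is particular to that tissue. The gonads were not part of it.

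Neither gene passed the test for sex outside the gonads. For AGT the difference, male minus female, was 0.10 (SE 0.20) in hypothalamus, 0.07 (SE 0.37) in adenohypophysis, 0.04 (SE 1.03) in thyroid gland and -0.53 (SE 0.33) in backfat. For AGTR1 it was 0.24 (SE 0.50), 0.28 (SE 0.30), 0.11 (SE 0.29) and -0.15 (SE 0.15). The lowest adjusted p of these 8 tests was 0.964 (limma), and 0.0667%, 0.5%, 0.0792% and 0.05% of probesets were called in the 4 tissues. Over all 26 breed and sex tests of the members, 0 passed after adjustment. An unadjusted p under 0.05 was found in 2 (limma), both for AGT (breed in backfat and in testis). Of all 23999 probesets, 5064 had such an unadjusted p for breed in backfat and 3352 in testis. It was thus common in both comparisons.

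The genes with the most similar profile over all 80 arrays were read from the probeset with the highest mean of each gene. For AGT they were ADORA1 (adenosine A1 receptor, r = 0.92), SDHA and NDUFV1 (subunits of the mitochondrial respiratory chain, r = 0.90 and 0.89), APOE (apolipoprotein E, r = 0.89) and GLUL (glutamine synthetase, r = 0.88). ADORA1 had means of 7.28, 7.44 and 8.79 in hypothalamus, backfat and testis and of 3.53 or less in the other 3 groups. APOE had means of 13.12, 12.28 and 11.66 in the same 3 groups and of 9.52 or less elsewhere. SDHA moved far less, between 9.41 and 10.82. These coefficients follow the tissue means and have no test.

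With the mean of each tissue group subtracted, the genes most similar to AGT were PPARG (the adipogenic nuclear receptor, r = 0.61), ME1 (malic enzyme, r = 0.58), DPT (dermatopontin, r = 0.58), FABP3 (r = 0.56) and ADIPOQ (r = 0.56). All 5 had their highest mean in backfat. The SD of AGT was largest in the thyroid gland (1.94), so these coefficients weigh the thyroid arrays most. ADIPOQ is also 1 of the adipocyte markers used there, and the coefficients have no test.

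For AGTR1 the most similar profiles over 80 arrays were IKBIP (r = 0.91), FZD4 (a Wnt receptor, r = 0.90), ENPP1 (an ectonucleotide pyrophosphatase, r = 0.90), ORMDL3 (a regulator of sphingolipid synthesis, r = 0.89) and ACAA2 (a mitochondrial thiolase of fatty acid oxidation, r = 0.88). All 5 had their highest mean in backfat and their lowest in hypothalamus, as AGTR1 had. After subtracting tissue means the coefficients were lower, with PRKCH (r = 0.47), TMEM100 (r = 0.47), ZNF281 (r = 0.43), DTD1 (r = 0.42) and S1PR1 (r = 0.42).

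The other angiotensin system genes were read from a list of 22 enzymes and receptors, of which 11 were measured. No probeset carried the symbol MAS1, which was not analysed here. ACE had means between 2.04 and 2.47 in all 6 groups, and only backfat, with a highest value of 4.40, reached above 3.11. Most of its values lay near the bottom of the scale, so no order of tissues is read from them. ATP6AP2, an accessory protein of the vacuolar proton pump, was even among tissues, with means from 10.08 in backfat to 11.11 in adenohypophysis. ANPEP, the aminopeptidase that shortens angiotensin III, was highest in thyroid gland (10.76 ± 0.33, SD) and lowest in hypothalamus (2.52 ± 0.52, n = 16 each). ENPEP, the aminopeptidase that converts angiotensin II to angiotensin III, was at 7.31 ± 2.08 in thyroid gland, with values from 4.15 to 9.60, at 7.05 ± 0.50 in backfat and at 3.42 ± 0.56 in hypothalamus (n = 16 each).

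**Figure D4:**
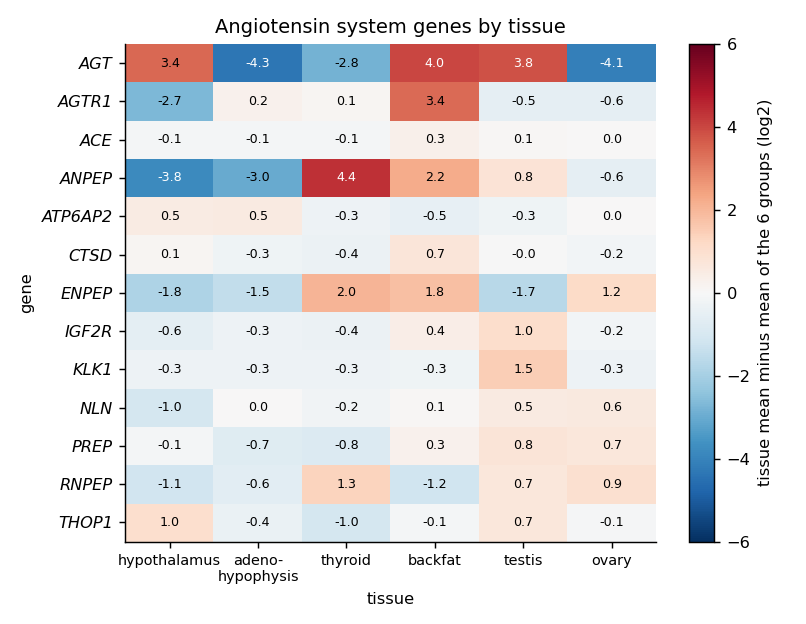
Mean log2 value of AGT, AGTR1 and the 11 measured angiotensin system enzymes and receptors in each tissue group, minus the gene's own mean over the 6 groups (colour and printed value, log2). AGT is high in hypothalamus, backfat and testis, AGTR1 in backfat and ANPEP in thyroid gland. ACE is almost flat, with most values near the bottom of the scale.

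Testis and ovary were then compared for 57 measured genes of 5 lists, to set the AGT difference beside its pathway. Of all probesets 28.3% were called in this comparison (limma, adjusted p under 0.05), 15.0% higher in testis and 13.2% lower. Of the 57 genes 20 were called, 9 higher in testis and 11 lower, and their median difference was 0.0098, against 0.0169 over all probesets. With the other tissues of each animal subtracted, 19 were called (7 higher, 12 lower), against 25.3% of all probesets, 13.6% higher and 11.7% lower. Without IBF25 the counts were 22 and 22. The calls over all 23999 probesets also rose without it, from 6781 to 7338 and from 6072 to 6554. Low signal was common in the lists, with 11 of the 57 genes under 2.5 and 19 under 4 in every tissue group. A median near 0 therefore does not show equal levels in testis and ovary.

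Among the enzymes and receptors, 5 of 11 were called, 4 of them higher in testis, against 28.3% of all probesets called and 15.0% higher. ENPEP fell from 6.42 ± 1.10 in ovary (n = 7) to 3.603 ± 0.88 in testis (n = 9), a fitted difference of -2.89 (SE 0.49, adjusted p = 0.000764, limma). ANPEP rose from 5.80 ± 0.51 to 7.15 ± 0.36, a difference of 1.36 (SE 0.17, adjusted p = 7.66e-05). IGF2R, the mannose 6-phosphate receptor, was higher in testis by 1.11 (SE 0.27, adjusted p = 0.00889) and KLK1, tissue kallikrein, by 1.51 (SE 0.53, adjusted p = 0.0497). KLK1 lay close to the threshold, with an adjusted p of 0.0512 after quantile normalization within tissues and above 0.05 without any one of 11 animals (up to 0.193, without YLF21). ACE, with most values near the bottom of the scale in both gonads, was not called, which does not show equal levels.

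Of 12 measured receptor partners and signalling genes, 3 were called, against 28.3% of all probesets. GNAI2 (a G protein subunit) and JAK2 (a kinase downstream of the receptor) were lower in testis, with differences of -0.65 (SE 0.16, adjusted p = 0.00854, limma) and -0.63 (SE 0.20, adjusted p = 0.0303). RHOA was higher by 0.29 (SE 0.10, adjusted p = 0.0485), which was lost in 3 of the other settings (adjusted p = 0.0561 to 0.0673) and without any one of 12 animals (up to 0.101). Leaving out single animals gave JAK2 adjusted p from 0.0125 to 0.116, the highest without the Youli female YLF21.

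Among 4 measured aldosterone and mineralocorticoid genes 1 was called, against 28.3% of all probesets, namely HSD11B2. This enzyme, which inactivates glucocorticoids and so shields the mineralocorticoid receptor, was at 9.23 ± 1.11 in testis (n = 9) and 3.21 ± 1.37 in ovary (n = 7), a difference of 6.24 (SE 0.41, adjusted p = 5.15e-07, limma). In the 4 other tissues its means were at 1.90 to 2.01, near the bottom of the scale. Its testis values (7.41 to 10.53) did not overlap those of the ovary (2.12 to 5.85).

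Of 19 measured genes of other vasoactive peptide systems, 6 were called, 2 higher in testis and 4 lower, against 28.3% of all probesets called. EDNRA, an endothelin receptor, was higher by 2.28 (SE 0.47, adjusted p = 0.00288, limma). Lower in testis were ADM (adrenomedullin), with a difference of -2.60 (SE 0.66, adjusted p = 0.0102), GUCY1B3, a subunit of soluble guanylate cyclase, with -1.97 (SE 0.28, adjusted p = 0.000214) and NPR2, the receptor of C-type natriuretic peptide, with -1.17 (SE 0.30, adjusted p = 0.0107).

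Of 11 measured regulators of AGT transcription, 5 were called, 4 of them lower in testis, against 28.3% of all probesets called and 13.2% lower. Whether these genes bear on AGT in the gonads was not tested. ESR1, the estrogen receptor, was at 2.33 ± 0.23 in testis, near the bottom of the scale, and at 5.93 ± 1.59 in ovary. Its difference was -3.52 (SE 0.57, adjusted p = 0.000613, limma). CEBPD had a difference of -1.85 (SE 0.40, adjusted p = 0.00421) and THRA, a thyroid hormone receptor, one of -1.10 (SE 0.21, adjusted p = 0.00201). NR3C1, the glucocorticoid receptor, was higher by 0.46 (SE 0.11, adjusted p = 0.00962).

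**Figure D5:**
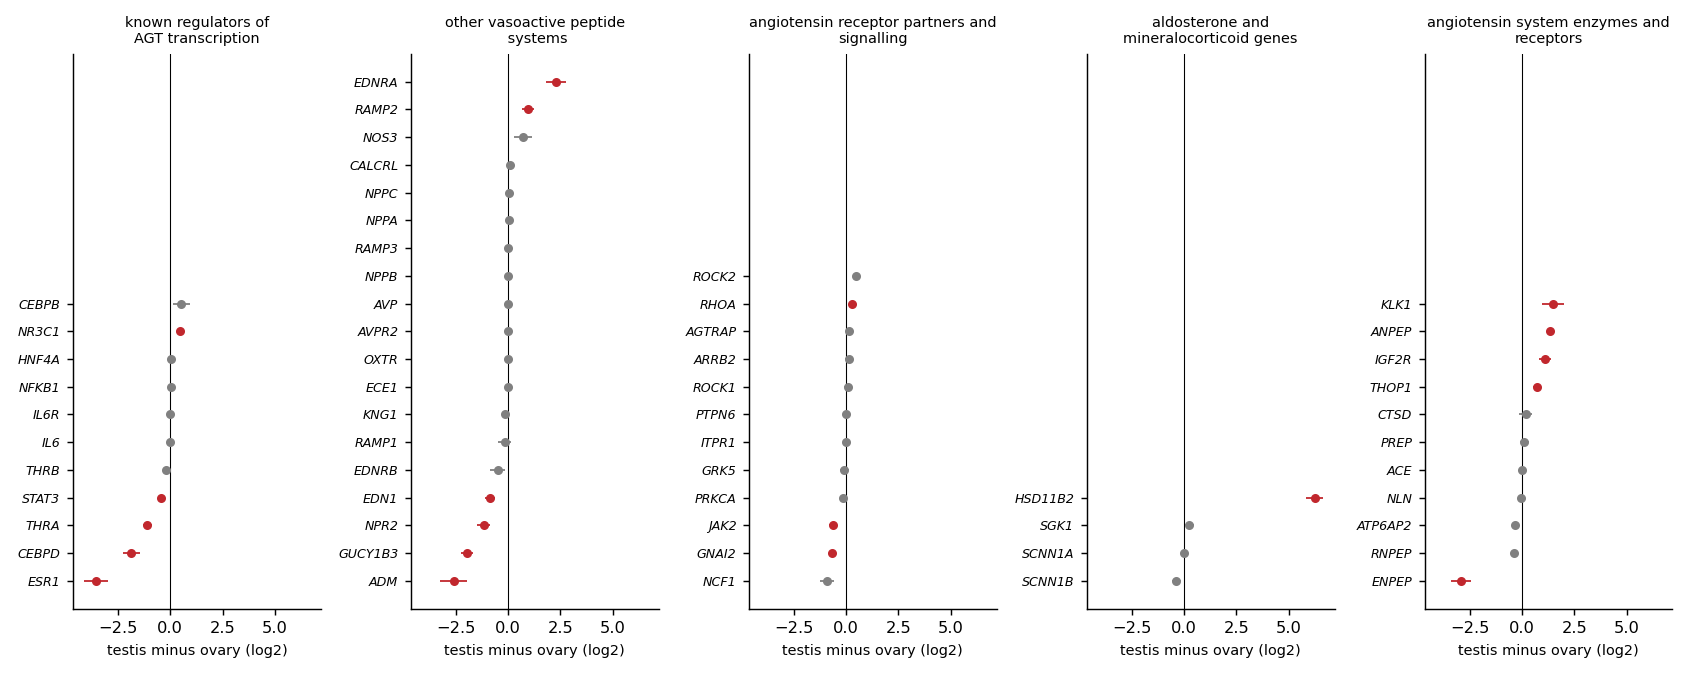
Fitted testis minus ovary difference (log2, x axis) with its SE for the 57 measured genes of the 5 lists, with red for an adjusted p under 0.05 and grey for the others. HSD11B2 (6.24) has the largest rise and ESR1 (-3.52) the largest fall, and most genes lie near 0. Of the 57 genes, 11 were under 2.5 and 19 under 4 in every tissue group, so a difference near 0 does not show equal levels.

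Breed tests called few probesets in all, and few genes of these lists. In the single tissues 0 of 57 passed (limma), where 0.0% (testis) to 0.817% (backfat) of all probesets were called, with 2 (ovary) to 9 (hypothalamus) of 57 at an unadjusted p under 0.05, against 7.15% and 11.5% of all probesets there. The sex tests of the 4 tissues outside the gonads also called 0 of 57 (limma), where 0.05% to 0.5% of all probesets were called. An unadjusted p under 0.05 was reached by 0 (hypothalamus) to 4 (adenohypophysis) of 57, against 1.72% and 7.4% of all probesets there. In the mean of the 4 tissues outside the gonads ROCK2, a kinase downstream of RHOA, was called (adjusted p = 0.0185), 1 of 57 against 1.18% of all probesets. At an unadjusted p under 0.05 there were 10 of 57, against 18.3% of all probesets. These counts are given beside those of all probesets, and nothing particular to the lists is read from them. ROCK2 was highest in Youli in each of the 4 tissues, with 5.34 ± 0.55 in Youli backfat and 3.86 ± 0.26 in Large White backfat (n = 4 each), and was no longer called without YLF21 (adjusted p = 0.0891) or YLM18 (0.0547). AVP, the vasopressin gene, was called for breed by tissue (adjusted p = 0.0282), also 1 of 57, against 2.65% of all probesets. Its hypothalamic means were 5.21 ± 3.89 in Large White, 9.67 ± 2.97 in Duroc, 11.65 ± 3.57 in Youli and 12.45 ± 1.89 in Iberian (n = 4 each), and it is also 1 of the 8 hypothalamic markers, whose mean was lowest in LWF06. AVP was not called without any one of 8 animals, with adjusted p (limma) of 0.172 without LWF06 and up to 0.205 without LWM04. The breed by tissue test uses 1 residual variance for all 4 tissues, while the SD of AVP within a breed was at most 0.0334 in thyroid gland. Within the hypothalamus alone, AVP did not pass the breed test (adjusted p = 0.3645, limma).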

How the data were processed

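The authors hybridised total RNA of each tissue to the Affymetrix porcine array, read the scans with GCOS per the labels' processing notes, and normalized all arrays together with GCRMA. The deposited values are log2 intensities and were used as they are. Of 24123 probesets, 124 controls were left out. Of the rest, 10069 carry 1 gene symbol, 198 several and 13732 none, and 9961 matched a RefSeq gene by Entrez number. A gene was read from its probeset with the highest mean. Arrays have no counting depth, and the number of animals limits the precision.

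Linear models were fitted over all 23999 probesets with limma 3.58.1 in R 4.3.3 (moderated F or two-sided statistic, Benjamini-Hochberg, threshold 0.05). Breed was tested within tissue with sex as a covariate, sex with breed, breed in the mean of the 4 tissues outside the gonads, and breed by tissue over 64 arrays. Testis and ovary were compared with breed as a covariate, alone and after subtracting the animal's other tissues. Scripts were tested on simulated data. The members and lists were chosen with earlier results of these arrays known, and the tissue levels and testis-ovary contrast of the members have no test. Correlations have 100000 permutations, or all orders in groups under 10.

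Named were the members, the 5 most similar genes, ACE and MAS1 where measured, and up to 4 called genes per list and comparison by size. ATP6AP2 and the tissue values of ANPEP and ENPEP were named after their values were seen. Replicate numbers are animal numbers, so the same number is the same pig in each tissue, and over the 2000 most variable probesets deviations from tissue-by-breed means correlated at 0.37 within an animal and -0.12 between animals of a breed. The second value follows from the first once those means are subtracted, so it is no separate evidence. Alternatives were a filter (16416 probesets with a group mean of 4 or more), quantile normalization, a trended robust prior, sex left out, thyroid grouping by fields, the animal as a block and leaving out each animal. Whether samples of a breed are related is not given in the sources used here. The levels, breed results and relations without the arrays with such unusual markers were added after the values were seen.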

Additional observations from a re-analysis of the deposited data

Results flagged for a closer look

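The AGTR1 value of the IBF25 ovary, 5.65, lay apart from the other 6 ovaries, with a gap of 0.59 of the whole range. It was the only such value in 36 groups of members' values examined, where chance gives about 1 in 20. This array also had low oocyte and granulosa cell markers, and their part in the value was not tested.

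The male-female difference in the gonads departed from that in the other tissues of the same animals by 7.92 for AGT, which was chosen with this contrast known and has no test. Among genes of the lists, the departure (testis minus ovary, beyond the other tissues) was higher for HSD11B2 (6.197, adjusted p = 6.09e-07, limma), EDNRA (2.38, adjusted p = 0.00180), ANPEP (1.25, adjusted p = 0.000840), IGF2R (1.00, adjusted p = 0.0112), THOP1 (0.71, adjusted p = 0.00825) and RHOA (0.32, adjusted p = 0.0106). It was lower for ESR1 (-3.20, adjusted p = 0.00104), ADM (-2.87, adjusted p = 0.00585), ENPEP (-2.57, adjusted p = 0.00380), GUCY1B3 (-1.96, adjusted p = 0.000246), CEBPD (-1.92, adjusted p = 0.000930), NPR2 (-1.24, adjusted p = 0.0111) and THRA (-1.11, adjusted p = 0.00130). Smaller falls were found for NCF1 (-0.92, adjusted p = 0.0435), JAK2 (-0.72, adjusted p = 0.0168) and STAT3 (-0.42, adjusted p = 0.00627). NCF1 was above 0.05 without some single animals (adjusted p up to 0.0921), and JAK2 without the Youli female YLF21 (0.0709).

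AVP was called for breed by tissue (adjusted p = 0.0282, limma), on the values given above for the hypothalamus, and this was lost without any one of 8 animals. Within the hypothalamus alone its adjusted p for breed was 0.3645 (limma).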

How the results depend on the processing

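None of the 26 breed and sex tests of AGT and AGTR1 passed 0.05 under any alternative that was run (238 values for each gene). For AGTR1 the lowest adjusted p was 0.0700, in backfat without YLM19 (limma). For AGT it was that in ovary without IBF22, a fit that leaves IBF25 as the only Iberian ovary. Differences near 0 changed sign: the AGTR1 sex difference in thyroid gland was -0.12 with thyroid arrays grouped by the label fields, and leaving out single animals gave -0.15 to 0.21 (AGT, breed in hypothalamus), -0.11 to 1.04 (AGTR1, breed in hypothalamus), -0.16 to 0.37 (AGTR1, breed in the mean of 4 tissues), and sex differences of -0.054 to 0.23 (AGT, hypothalamus), -0.066 to 0.34 (AGT, adenohypophysis), -0.44 to 0.72 (AGT, thyroid gland), -0.018 to 0.60 (AGTR1, hypothalamus) and -0.12 to 0.24 (AGTR1, thyroid gland).

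Counts of probesets called for breed moved with the settings. With sex left out they were 79 in hypothalamus (41 in the model used), 298 in backfat (196) and 3 in gonads (12). The filter gave 109 in adenohypophysis (72), 3 in testis (0) and 0 in ovary (1). The trended robust prior gave 593 in backfat, 9 in testis and 15 in ovary, and quantile normalization 1 in testis. With the label fields 0 were called in thyroid gland for breed (138) and 0 for sex (19). With the animal as a block, breed by tissue gave 1194 (635), and the F of AGT was 1.13. Without an animal, breed counts were 20 to 66 in hypothalamus, 40 to 178 in adenohypophysis, 56 to 424 in thyroid gland, 48 to 414 in backfat, 4 to 22 in gonads, 0 to 14 in testis, 0 to 458 in ovary, 140 to 464 over 4 tissues and 393 to 790 for breed by tissue, and sex counts 77 to 121 in adenohypophysis. The causes were not tested. Tissue means of the members and their testis-ovary differences moved by less than 1 SD in every setting run. With 1 to 3 animals per breed and sex, a p above 0.05 does not show equal levels, and values near the bottom of the scale have no order.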
